A study of Homo sapiens with 4 samples.

Results

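The transcripts of 10 genes were followed across the deposited expression table of the leukaemia line MOLM-13: the annexins ANXA1, ANXA2 and ANXA5, the scaffold gene AHNAK, and the S100 genes S100A4, S100A6, S100A8, S100A9, S100A10 and S100A11. They were taken by symbol, and all 10 were found among the 27800 symbols of the table. The set was selected on earlier values of the sgKAT6A and EV libraries, so the group differences given here are a description and were not used as support. MOLM-13 is a human acute myeloid leukaemia line with monocytic features and a KMT2A-MLLT3 (MLL-AF9) fusion. RNA was sequenced from 2 groups of 2 libraries, from cells described as given lentivirus carrying CRISPR-Cas9. In the group labelled sgKAT6A the vector also carried a guide against KAT6A, a histone lysine acetyltransferase, and the other group was labelled EV. The sources used here do not give what the EV vector held, which or how many guides were used, or when cells were harvested. The labels do not say whether libraries came from separate cultures, so the spread between them may be technical.

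Annexins are calcium-dependent proteins that bind acidic phospholipids at the inner face of membranes. S100 proteins are small EF-hand proteins, most but not all of them calcium sensors. They work mostly as dimers and dock on target proteins, several of them annexins. ANXA2 and S100A10 form a joint complex that binds the giant scaffold protein AHNAK under the plasma membrane and plasminogen at the cell surface. S100A8 and S100A9 pair as calprotectin, an abundant cytosolic protein of monocytes and neutrophils, and their transcripts accumulate as myeloid cells mature.

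Within each group, values are always given for replicate 1 and then replicate 2. The unit is TPM, transcripts per 1000000 in a library, which is per length and so allows levels to be set beside each other between genes. Read depth is unknown in TPM, and the number of libraries limits the precision. KAT6A transcript was at 16.2 and 16.7 TPM with EV against 12.2 and 10.8 TPM with sgKAT6A. Libraries of the same group stood apart, at -39.6 and 5.25 (EV) and at -20.2 and 54.6 (sgKAT6A) on a first principal component with 61.0% of the variance. Reads of 18S ribosomal RNA (RNA18SN5) gave 340 TPM in sgKAT6A replicate 2, compared with 10401 to 13751 TPM elsewhere. All 9 markers of the line were detected, with CD33 at 99.2 to 115 TPM and SPI1 at 334 to 519 TPM. Markers of B cells and fibroblasts were all under a mean of 1 TPM (5 of 5 in each list), as were 5 of 6 epithelial, 4 of 5 megakaryocyte and 3 of 4 endothelial markers. The T cell gene CD3D was at 5.65 to 11.5 TPM, with CD2 at 0. Haemoglobin transcripts were present and followed neither the groups nor the replicate numbers. HBB was at 38.6 and 192 TPM with EV against 188 and 61.1 TPM with sgKAT6A, and HBA1 at 67.3 and 201 TPM with EV against 189 and 116 TPM with sgKAT6A. HBA2 ran the other way, at 39.1 and 12.7 TPM with EV against 10.3 and 66.6 TPM with sgKAT6A, and reads of HBA1 and HBA2, near-identical copies, may be split uncertainly. The share of a library's summed TPM that fell on protein-coding symbols was 81.2% and 81.7% with EV against 77.9% and 78.1% with sgKAT6A, a difference in composition that moved with the groups and bears on every TPM level. In bulk RNA, fewer cells of a type and less RNA per cell cannot be told apart.

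Of the 10 genes, 6 lie in the S100 gene group of chromosome 1 and were the only strongly expressed S100 genes of that group. Positions here are from GENCODE 29 on GRCh38, since the table has none, and the submitters' processing notes name hg38. S100A10 (chromosome 1, 151982915 to 151994390, minus strand) and S100A11 (152032506 to 152047907, minus strand) are followed after a gap of 1310 kb by 15 further S100 genes. Among these are S100A9 (153357854 to 153361027, plus strand), S100A8 (153390032 to 153391188, minus strand), S100A6 (153534599 to 153536244, minus strand) and S100A4 (153543613 to 153550136, minus strand). Over the 4 libraries the 6 averaged at least 102.8 TPM, whereas none of the 11 other S100 genes listed in that window averaged more than 10.7 TPM and 8 averaged under 1 TPM. S100A5, which lies between S100A6 and S100A4, was listed at 0 with EV and reached 0.117 and 0.516 TPM with sgKAT6A. S100A3, which overlaps S100A4 on the same strand, was at 0.207 to 0.716 TPM, against 847 to 1507 TPM for S100A4. S100A7A, S100A7L2 and S100A7 were listed at 0 in every library.

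**Figure D1:**
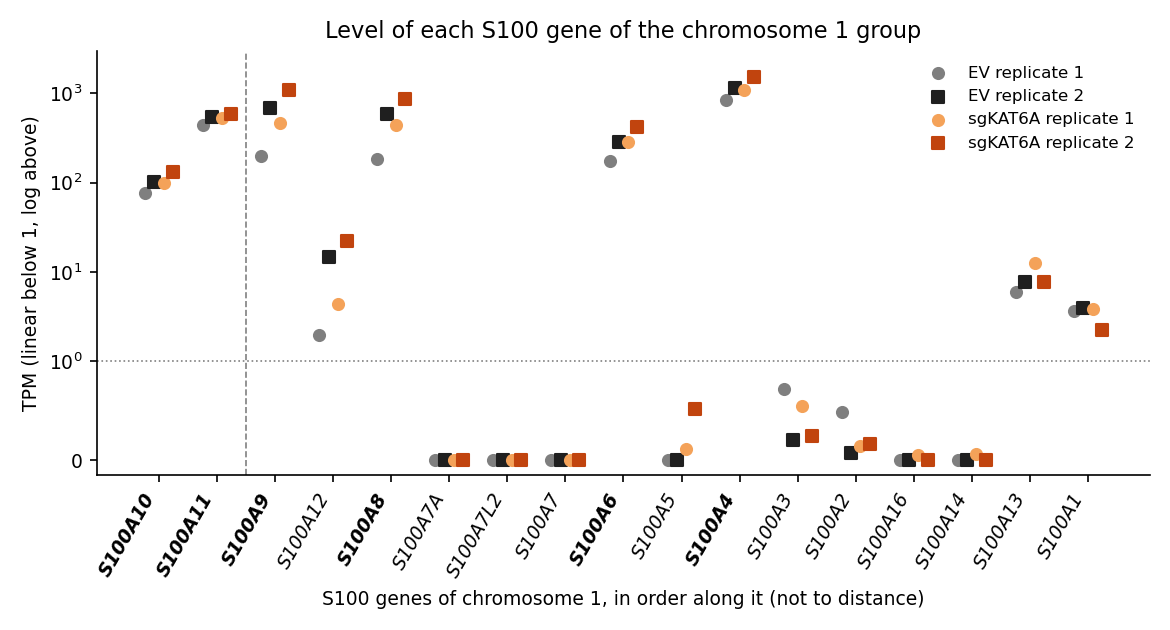
TPM of each S100 gene of chromosome 1 in each of the 4 libraries, with genes in their order along the chromosome and the axis linear below 1 TPM and logarithmic above. Bold names are the 6 genes described, the dashed line marks the 1310 kb gap, the dotted line marks 1 TPM, and the 6 sit at 76.6 TPM or higher in every library while no other gene exceeds 21.9 TPM.

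The other 4 genes lie elsewhere in the genome. ANXA1 is on chromosome 9 (73151757 to 73170393, plus strand), ANXA2 on chromosome 15 (60347134 to 60402883, minus strand), ANXA5 on chromosome 4 (121667955 to 121697113, minus strand) and AHNAK on chromosome 11 (62433542 to 62556235, minus strand). The longest annotated coding sequences of the 6 S100 genes ran from 270 to 342 bases over 2 or 3 coding exons. Those of the 3 annexin genes ran from 960 to 1071 bases over 12 or 13 coding exons. AHNAK differs from all of them, with a coding length of 17670 bases of which 98.1% lies in 1 exon of 17328 bases. An antisense or pseudogene annotation overlaps ANXA2, AHNAK, S100A6 and S100A11 on the opposite strand. These are overlaps of whole gene spans, and overlap of exons was not examined. The sources used here do not say whether strand was used, so it is not known whether reads of such partners entered these values.

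Promoter letters were compared because several of the genes share a level pattern across libraries. RefSeq promoters on GRCh38.p14, from 250 bases before to 50 bases after a start site, were found for all 10 genes, with 3 start sites for S100A8 and 1 for each of the others. The letters TATAAA, the core of a TATA box, stood in at least 1 promoter of 5 of the 10 genes, against 11.5% of the 35116 promoters of that length in the table. This motif was added after the sequences had been seen, so the comparison is a description and was not used as support. In this and the later motif counts, the 10 are counted per gene, with any of its promoters, and the background per promoter. AHNAK, the nearest of the set to ANXA1 in the level pattern measured below, lacks the letters. In 1 promoter of each of the 5 genes the letters TATAAA began 29 to 31 bases before the start site. The stretches from 40 to 11 bases before the start site are shown for these 5 and for S100A6 and AHNAK, which lack the letters, with TATAAA in capitals. All are written 5′ to 3′ on the gene's strand.
S100A8 (chr1:153391084-153391113, minus): agcctaaccgcTATAAAaaggagctgcctc
S100A9 (chr1:153357814-153357843, plus): caggagctgccTATAAAtgccgagcctgca
S100A4 (chr1:153545817-153545846, minus): tggctggggTATAAAtaggtcagacctctg
ANXA1 (chr9:73151825-73151854, plus): ttaaaatccTATAAAatcagaagcccaagt
ANXA2 (chr15:60397997-60398026, minus): tgtggcgggTATAAAagccccacccaggcc
S100A6 (chr1:153536002-153536031, minus): caccgaccgctataaggccagtcggactgc
AHNAK (chr11:62545837-62545866, minus): ccaactcccaaacccgtccgggcgggatgg
For S100A8, the stretch belongs to the middle of its 3 start sites. Letters of 3 transcription factor motifs with known parts in myeloid genes were searched on both strands of the same promoters. The C/EBP letters TTNCNNAA stood in 5 of the 10 genes (ANXA1, S100A6, S100A8, S100A9 and S100A11), against 36.8% of all promoters. The AP-1 letters TGANTCA stood in ANXA2 alone, 127 bases before its start, against 7.71% of all promoters. The PU.1 letters GAGGAAGT stood in none, against 2.59% of all promoters. The motifs do not overlap each other in the stretches shown, and a match is a description of the letters and not of binding.

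S100A4 was the most abundant transcript of the set, and AHNAK and ANXA1 were the least. Together the 10 genes took 2184 and 3745 TPM with EV against 3346 and 5113 TPM with sgKAT6A. In EV the mean order was S100A4, S100A11, S100A9, S100A8, S100A6, ANXA2, ANXA5, S100A10, ANXA1 and AHNAK. S100A4 ranked 127th and AHNAK 3281st among the 12603 genes that averaged 1 TPM or more. S100A4 was the highest, ANXA1 ninth and AHNAK the lowest of the 10 in every library. In EV the libraries of S100A11, S100A9, S100A8, S100A6 and ANXA2 overlapped from each gene to the next, as did those of ANXA5 and S100A10, so the order within these runs does not exceed the spread. In both libraries numbered 2, S100A9 and S100A8 stood above S100A11, and in both libraries numbered 1 they stood below it.

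**Figure D2:**
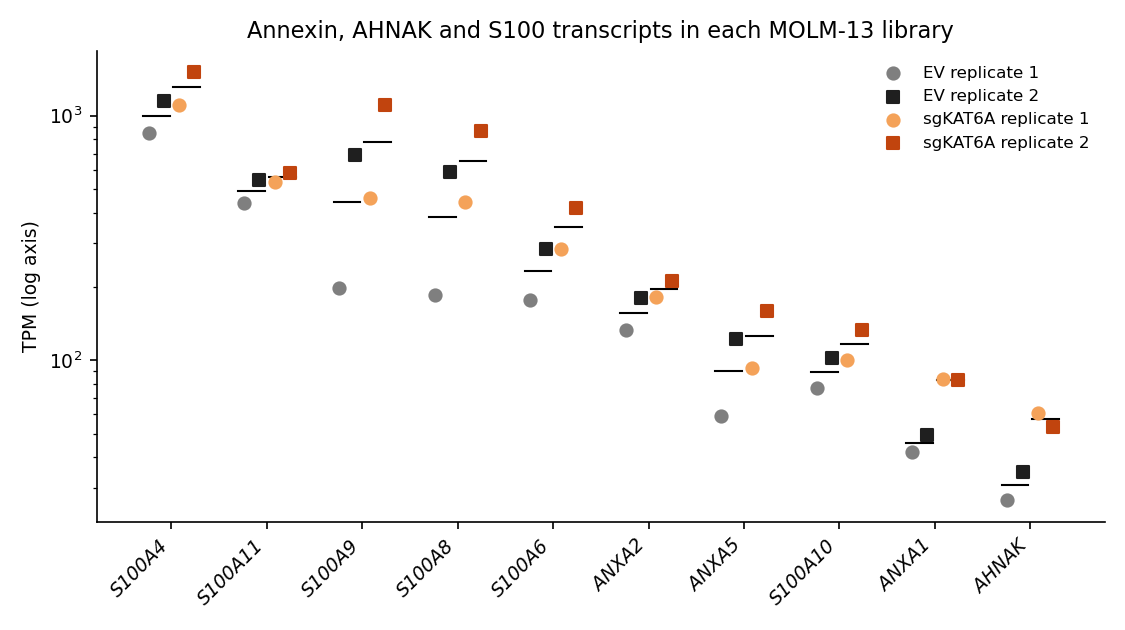
TPM of the 10 genes on a log axis in each of the 4 libraries, with short black lines at the group means and genes in the order of their EV mean. ANXA1, AHNAK and ANXA2 have both sgKAT6A points above both EV points, ANXA2 by a narrow margin, and S100A8 and S100A9 run from EV replicate 1 at the bottom to sgKAT6A replicate 2 at the top.

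No gene tested passed between sgKAT6A and EV without a replicate block, and none of the 10 passed with or without one. With limma on log2(TPM + 1), 0 of 12603 genes (0%) had an adjusted p under 0.05, and the adjusted p of the 10 genes ran from 0.784 to 0.792. With the replicate number as a block in the limma fit, 15 genes passed, 0 of them among the 10. At an unadjusted p under 0.05, 459 genes were found, of which 210 (1.67% of all tested) were higher in sgKAT6A, and 2 of the 10 were among these, ANXA1 and AHNAK. All 10 had a higher mean in sgKAT6A, with a median log2 difference of 0.56, against -0.016 over all genes tested. Both sgKAT6A libraries stood above both EV libraries for 3 of the 10 (ANXA1, ANXA2 and AHNAK), against 14.4% of all genes tested. For 0 of the 10 both stood below, against 23.2%. The count of 3 above depended on scaling: as deposited, S100A4, S100A6, S100A10 and S100A11 in sgKAT6A replicate 1 lay 0.604% to 3.99% below EV replicate 2. It was 7 of 10 with median-of-ratios scaling (18.3% of all genes tested), 6 with quantile normalization (15.3%) and 7 with protein-coding genes alone rescaled (19.5%). Comparing libraries that carry the same replicate number, sgKAT6A stood above EV in both comparisons for 10 of 10 genes, against 32.0% of all genes tested. This was not particular to the set. It also held for all 10 monocyte markers that averaged at least 1 TPM, whose median log2 difference was 0.75. Among granulocyte markers at that level it held for 4 of 9. With 2 libraries per group an exact permutation test cannot give a two-sided p below 0.333.

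ANXA1 and AHNAK were the genes of the set in which the groups stood furthest apart relative to the gaps within them. ANXA1 encodes annexin A1, a glucocorticoid-induced protein that dampens neutrophil recruitment through formyl peptide receptors. It was at 42.2 and 49.5 TPM with EV against 83.5 and 82.7 TPM with sgKAT6A. The groups did not overlap, and the sgKAT6A libraries were close to each other. The log2 difference was 0.85 ± 0.13 (SE; 95% interval 0.48 to 1.22; limma adjusted p = 0.784). AHNAK encodes a very large scaffold protein that links the ANXA2 and S100A10 complex to cortical actin and calcium channels. It was at 26.7 and 34.8 TPM with EV against 61.0 and 53.3 TPM with sgKAT6A. Here too the groups did not overlap, and the higher sgKAT6A library was replicate 1, the reverse of most of the set. The log2 difference was 0.88 ± 0.18 (SE; 95% interval 0.37 to 1.39; limma adjusted p = 0.784). For these 2 of the 10 genes alone, the group difference was larger than the gap between libraries in both groups, against 9.20% of all genes tested that were higher in sgKAT6A by this measure. With 1 library left out at a time, the difference of ANXA1 ran from 0.74 to 0.96 and that of AHNAK from 0.70 to 1.07, lowest without EV replicate 1 and highest without EV replicate 2 in both.

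Calprotectin transcripts differed more between libraries of a group than between the groups. S100A8 was at 185 and 586 TPM with EV against 445 and 863 TPM with sgKAT6A. EV replicate 2 stood above sgKAT6A replicate 1, so the groups overlapped. S100A9, its partner, was at 198 and 689 TPM with EV against 461 and 1103 TPM with sgKAT6A. The libraries fell in the same order for both genes, with EV replicate 1 lowest and sgKAT6A replicate 2 highest. The log2 difference between the groups was 0.91 ± 0.68 (SE) for S100A8 and 0.95 ± 0.78 (SE) for S100A9, with 95% intervals of -0.996 to 2.81 and -1.23 to 3.13. The gap between the EV libraries was 1.66 for S100A8 and 1.80 for S100A9 on the log2 scale, and the sgKAT6A libraries were 0.96 and 1.26 apart. Without EV replicate 1 the difference was 0.079 for S100A8 and 0.049 for S100A9, and without EV replicate 2 it was 1.74 and 1.85. Without sgKAT6A replicate 1 it was 1.39 for S100A8 and 1.58 for S100A9, and without sgKAT6A replicate 2 it was 0.43 and 0.32. The direction held when any 1 library was left out, but the size rested on which libraries were used in both groups. S100A8 was at 0.938 and 0.851 times the S100A9 level with EV against 0.965 and 0.782 times with sgKAT6A, so their ratio moved far less than either level.

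Most monocyte markers had the same order of libraries as calprotectin, with EV replicate 1 lowest, then sgKAT6A replicate 1, EV replicate 2 and sgKAT6A replicate 2. This order was found in 8 of the 10 monocyte markers that averaged at least 1 TPM, all but LYZ and VCAN. The first principal component placed the libraries in the same order, at -39.6, -20.2, 5.25 and 54.6. ANXA5, S100A4, S100A6, S100A10 and S100A11 had this order as well, so it was not particular to calprotectin and monocyte markers. Its share over all genes tested was not counted. S100A12, the neighbour that lies between S100A9 and S100A8 and also marks monocytes and neutrophils, was at 1.95 and 14.7 TPM with EV against 4.40 and 21.9 TPM with sgKAT6A. CD14 was at 1.08 and 29.3 TPM with EV against 3.04 and 54.3 TPM with sgKAT6A, and ITGAM at 3.74 and 21.5 TPM with EV against 12.3 and 52.1 TPM with sgKAT6A. The 10 monocyte markers had a median gap of 1.65 within EV and 1.44 within sgKAT6A, and the other 2 of the list, CD163 and MRC1, were at or near 0. The summed level of the 12, most of it LYZ, was 7253 and 8438 TPM with EV against 11249 and 10079 TPM with sgKAT6A. The 13 granulocyte markers summed to 9913 and 5556 TPM in EV and to 7680 and 4608 TPM in sgKAT6A. FCGR3B and MMP8 were at 0 in every library. The sum, most of it PRTN3, ELANE, AZU1 and CTSG, was higher in the libraries numbered 1. Of the 9 granulocyte markers that averaged at least 1 TPM, CSF3R, CAMP and MMP9 ran the other way in both groups. The part of myeloid maturation in the S100A8 and S100A9 values was not tested.

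**Figure D3:**
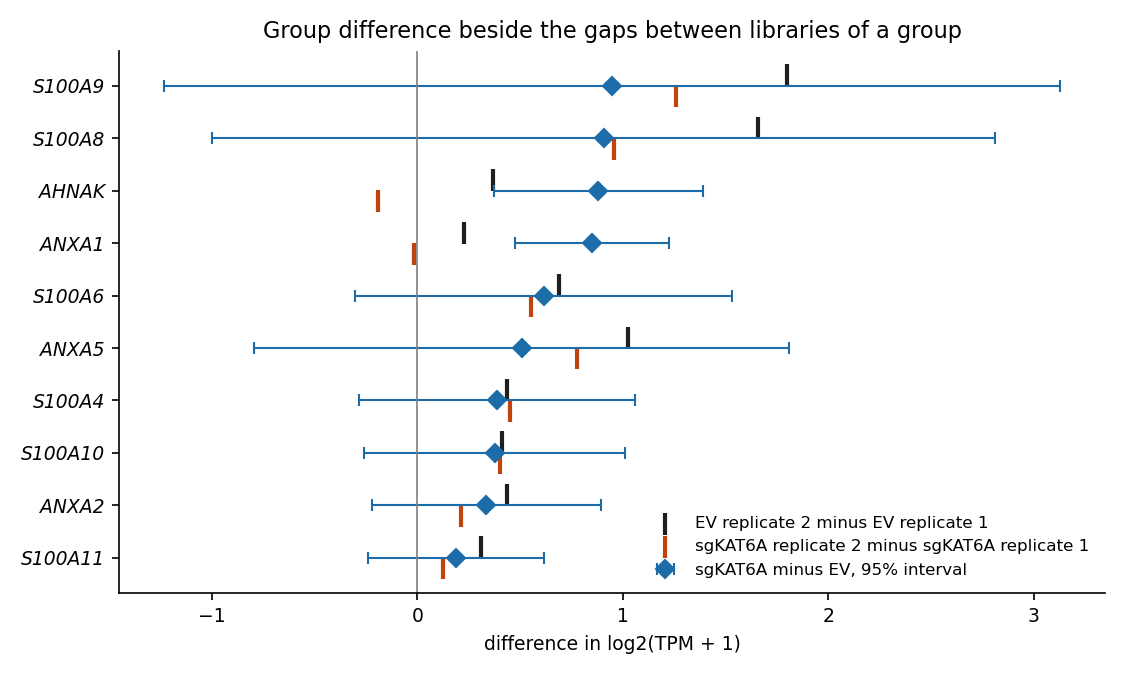
Difference between sgKAT6A and EV in log2(TPM + 1) for each of the 10 genes (diamonds, with 95% intervals from limma), beside the gap within EV (black ticks) and within sgKAT6A (red ticks). Only the intervals of ANXA1 and AHNAK lie above 0, and for S100A8, S100A9, ANXA5, S100A4 and S100A10 both gaps are larger than the group difference.

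ANXA2 and S100A10, whose proteins form a complex, had similar and smaller differences. ANXA2 was at 133 and 180 TPM with EV against 181 and 210 TPM with sgKAT6A. The lower sgKAT6A library exceeded the higher EV library by 0.764%. The log2 difference was 0.34 ± 0.20 (SE). S100A10, which encodes the p11 light chain of the complex, was at 76.6 and 102 TPM with EV against 100 and 132 TPM with sgKAT6A. The EV replicate 2 and sgKAT6A replicate 1 values nearly coincided, and the log2 difference was 0.38 ± 0.23 (SE). With 1 library left out, the difference of ANXA2 ran from 0.12 without EV replicate 1 to 0.55 without EV replicate 2, and that of S100A10 from 0.17 to 0.58 without the same libraries. Leaving out sgKAT6A replicate 2 gave 0.23 for ANXA2 and 0.18 for S100A10, and leaving out sgKAT6A replicate 1 gave 0.58 for S100A10. ANXA2 was at 1.73 and 1.76 times the S100A10 level with EV against 1.81 and 1.59 times with sgKAT6A. Of the processed pseudogenes of ANXA2 in the table, ANXA2P1 and ANXA2P3 were listed at 0 and ANXA2P2 at 0 to 0.187 TPM.

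The other S100 genes and ANXA5 had EV replicate 2 above sgKAT6A replicate 1. S100A4, which binds non-muscle myosin and is known for its part in cell motility, was at 847 and 1149 TPM with EV against 1103 and 1507 TPM with sgKAT6A. S100A6, or calcyclin, was at 176 and 286 TPM with EV against 284 and 418 TPM with sgKAT6A. S100A11, a partner of ANXA1, was at 440 and 547 TPM with EV against 536 and 584 TPM with sgKAT6A. In each of these 3 the lowest library was EV replicate 1, the highest was sgKAT6A replicate 2, and the remaining libraries nearly coincided. Their log2 differences were 0.39 ± 0.24, 0.61 ± 0.33 and 0.19 ± 0.15 (SE) in that order, and S100A11 had the smallest difference of the set. These sizes too rested on single libraries. Without EV replicate 1 they fell to 0.17, 0.27 and 0.034 in the same order, and without sgKAT6A replicate 2 to 0.16, 0.34 and 0.13. Without EV replicate 2 they were 0.61, 0.96 and 0.35, and without sgKAT6A replicate 1 they were 0.61, 0.89 and 0.25. ANXA5, which binds phosphatidylserine and is used as a probe of dying cells, was at 59.2 and 122 TPM with EV against 92.5 and 159 TPM with sgKAT6A. Its log2 difference of 0.51 ± 0.47 (SE) was smaller than the gaps of 1.03 within EV and 0.77 within sgKAT6A. Without EV replicate 1 the difference of ANXA5 was -0.0054, the only change of sign in the set when a library was left out. In 8 of the 10 genes, all but ANXA1 and AHNAK, the library numbered 2 stood above the library numbered 1 in both groups, against 38.0% of all genes tested.

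**Figure D4:**
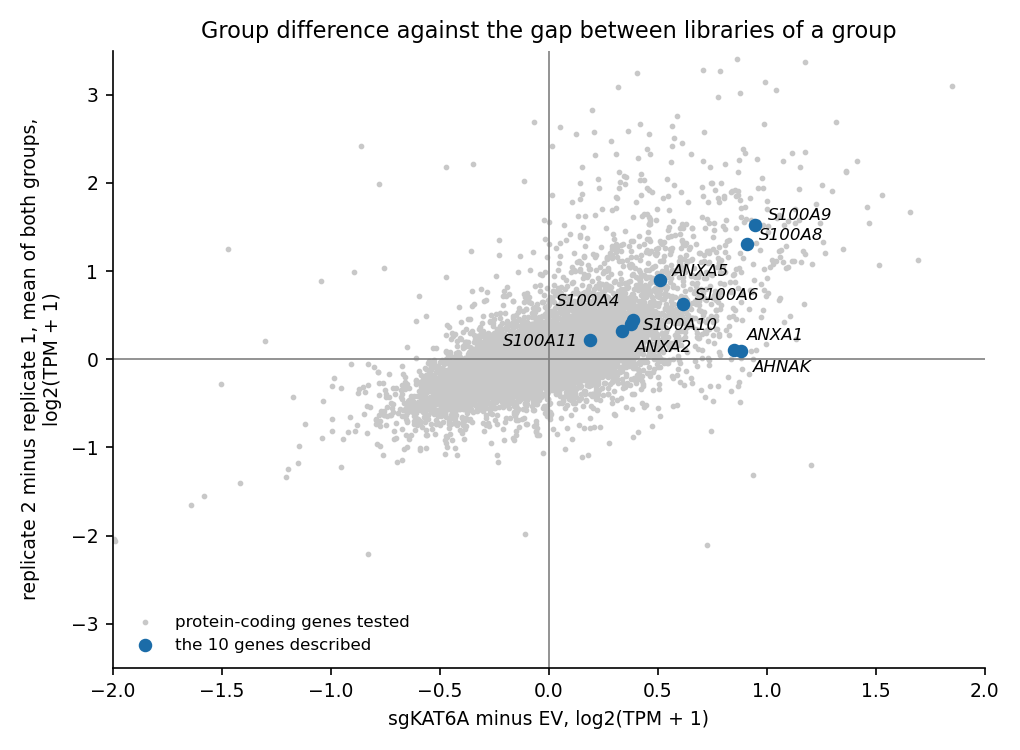
Each grey point is a protein-coding gene tested, with the sgKAT6A minus EV difference on the horizontal axis and the mean gap between replicate 2 and replicate 1 of the 2 groups on the vertical axis, both in log2(TPM + 1), and 25 of 10788 genes lie outside the axes. ANXA1 and AHNAK (blue) lie to the right near the horizontal line, S100A8 and S100A9 to the upper right, and the other 6 between them and the origin.

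Likeness of pattern was measured as the Euclidean distance between log2(TPM + 1) values centred on each gene's mean over the 4 libraries. Among 6682 other protein-coding genes that averaged 10 TPM or more, the gene nearest to S100A8 was S100A9 (distance 0.24), followed by LSP1 (0.247) and GABARAPL1 (0.262). The reverse did not hold, since CD101 (0.0613), MCEMP1 (0.0687) and FGR (0.119) were nearest to S100A9, and S100A8 ranked 9th. The genes nearest to ANXA1 were UBA7 (0.131), AHNAK (0.164) and ITGB7 (0.192). Those nearest to AHNAK were ANXA1 (0.164), PLEC, which encodes the cytoskeletal linker plectin (0.207), and SCX (0.221). For S100A10 they were IRF5 (0.0306), ORAI3 (0.0314) and TPM2 (0.0363), and the nearest gene of the set was S100A4 (0.0415), not ANXA2. With 4 libraries many genes share any pattern, so these distances are a description.

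Other annexins and S100 genes were mostly low, and 0 of them passed by limma. Of 10 other annexin genes, 5 averaged at least 1 TPM, with a median log2 difference of 0.14 and 2 with both sgKAT6A libraries above both EV libraries, against 14.4% of all genes tested. ANXA11, the most abundant of these, was at 56.2 and 61.7 TPM with EV against 53.2 and 61.5 TPM with sgKAT6A. ANXA6 was at 2.63 and 4.10 TPM with EV against 4.28 and 8.54 TPM with sgKAT6A, which did not overlap, and the other non-overlapping gene was ANXA9. ANXA4 and ANXA7 stayed between 27.2 and 39.3 TPM in all libraries. ANXA8L1, a near-identical copy of ANXA8, was listed at 0 in every library, so how reads were assigned between these copies is uncertain. Of 15 other S100 genes and AHNAK2, 4 averaged at least 1 TPM (S100A1, S100A12, S100A13 and S100P), and AHNAK2, the paralog of AHNAK, was at 0.181 to 0.473 TPM. These 4 had a median log2 difference of 0.59, with 3 upward, beside 0.56 for the 10 genes of the set. Only 1 of the 4, S100A13, had both sgKAT6A libraries above both EV libraries, against 14.4% of all genes tested. It did so narrowly, at 5.953 and 7.755 TPM with EV against 12.469 and 7.761 TPM with sgKAT6A.

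The binding partners of these proteins had both directions among them, and how many lay below without overlap depended on scaling. Of 11 partner genes, 7 had the sgKAT6A libraries below the EV libraries without overlap and 0 had them above, against 23.2% and 14.4% of all genes tested, with a median log2 difference of -0.16, and none passed by limma. The number below was 5 with median-of-ratios scaling (18.0% of all genes tested), 4 with quantile normalization (19.4%) and 5 with protein-coding genes alone rescaled (16.2%), with 1 above in each. PDCD6, HLTF, ANXA2R and S100PBP lay below in all 3 while CACYBP did not. The largest difference of the list was upward and overlapped: MYOF, a paralog of dysferlin, was at 1.99 and 7.85 TPM with EV against 7.26 and 12.97 TPM with sgKAT6A (log2 difference 1.06). ANXA2R, named as a receptor for annexin A2, was at 6.90 and 4.26 TPM with EV against 3.02 and 2.83 TPM with sgKAT6A. PDCD6, a calcium-binding partner of ANXA7 and ANXA11, was at 110 and 108 TPM with EV against 88.1 and 93.8 TPM with sgKAT6A. CACYBP, the calcyclin-binding protein that S100A6 docks on, was at 63.5 and 57.1 TPM with EV against 55.2 and 42.5 TPM with sgKAT6A. HLTF, a chromatin remodeller bound by the ANXA2 and S100A10 complex, was at 8.34 and 8.51 TPM with EV against 7.13 and 6.54 TPM with sgKAT6A. MYH9, the non-muscle myosin heavy chain bound by S100A4, overlapped between the groups at 152 and 191 TPM with EV against 203 and 190 TPM with sgKAT6A.

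Receptors and the plasminogen pathway varied mainly between libraries of a group. Of 17 genes, 15 averaged at least 1 TPM, with a median log2 difference of 0.32, 1 above and 1 below without overlap, against 14.4% and 23.2% of all genes tested, and none passed by limma. Their median gap was 0.58 within EV and 0.68 within sgKAT6A. FPR1, a formyl peptide receptor that annexin A1 can engage, was at 0.638 and 21.1 TPM with EV against 2.79 and 30.5 TPM with sgKAT6A. FPR2, the main annexin A1 receptor, was at 0.0948 to 1.03 TPM. TLR4, a receptor for extracellular calprotectin, was at 8.04 and 11.6 TPM with EV against 10.7 and 17.0 TPM with sgKAT6A. SERPINB2, an inhibitor of urokinase, was at 8.76 and 13.5 TPM with EV against 19.2 and 20.7 TPM with sgKAT6A, the gene above without overlap. The gene below was BSG, a receptor for S100A9, at 576 and 530 TPM with EV against 529 and 483 TPM with sgKAT6A, which overlapped under each of the 3 other scalings. PLAUR, the urokinase receptor, was at 70.6 and 132 TPM with EV against 77.5 and 153 TPM with sgKAT6A, so it followed the libraries rather than the groups.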

How the data were processed

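The authors deposited 1 table of TPM per gene symbol for 4 libraries. Salmon and hg38 are named in the submitters' processing notes, and the sources used here give no version, annotation or filter. TPM keeps no read depth, so no count model was used. Libraries were assigned to groups by title. Values were used as log2(TPM + 1), and the 12603 genes averaging 1 TPM or more were fitted with limma 3.58.1 in R 4.3.3, with a trended prior variance (residual degrees of freedom 2, prior 1.98). P-values were two-sided and adjusted over all genes tested (Benjamini-Hochberg), threshold 0.05. Differences on this scale understate the change of low genes. The members and lists were chosen with earlier results of these data known. Named genes were all 10 members and, per list, those highest in TPM, smallest in unadjusted p, or of known role. Alternatives were pseudocounts of 0.1 and 5, no filter, a 5 TPM minimum, 3 other scalings, an untrended variance, leaving out each library, and a replicate block. The limma step was tested on simulated data, where recovery of changes was required only at 0.1 of the real spread. Recovery at the real spread is not given here. Positions came from GENCODE 29 and promoters from RefSeq. RefSeq classes matched 12364 of the genes tested. Figures used matplotlib 3.10.9.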

Additional observations from a re-analysis of the deposited data

How the results depend on the processing

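Over 13 alternatives, 4 of which left out a library, 129 of 130 values of the 10 genes kept their direction and stayed short of the threshold, and the exception was ANXA5 at -0.0054 without EV replicate 1 (1.02 without EV replicate 2). None of the 10 passed under any alternative. The number with both sgKAT6A libraries above both EV libraries was 3 as deposited, 7 with median-of-ratios scaling, 6 with quantile normalization and 7 with protein-coding genes alone rescaled, and 3 to 10 with a library left out (10 without EV replicate 2 or without sgKAT6A replicate 1, where 1 library stands for its group). Over all genes tested the share above was 14.4% as deposited, 19.5% without EV replicate 1, 39.2% without EV replicate 2, 36.7% without sgKAT6A replicate 1 and 27.6% without sgKAT6A replicate 2. The median log2 difference ran from 0.14 without EV replicate 1 to 0.96 without EV replicate 2. A lone library was assumed to vary like the other group. With a replicate block in the fit, 15 genes passed by limma against 0 without it, 0 of them among the 10, whose adjusted p ran from 0.146 to 0.329. At an unadjusted limma p under 0.05, the block gave 9 of the 10 and 2417 of all 12603 genes. Without it there were 2 of the 10 and 459 of all genes. Libraries with the same number deviated together (r = 0.455 across genes), but the labels do not say that a number marks a shared culture. Differences between libraries of a group and the unknown depth limit all values.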

Other observations

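MMP9, a granulocyte marker that encodes a gelatinase, was at 1.02 and 85.1 TPM with EV against 2.40 and 212 TPM with sgKAT6A. FCN1, a monocyte marker that encodes ficolin-1, was at 0.243 and 16.5 TPM with EV against 0.473 and 32.1 TPM with sgKAT6A. Both gaps between libraries of a group were wider than those of S100A8 and S100A9.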
